A study of Mus musculus with 2 samples.

Results

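The 10 genes described here encode the chaperones and ATP-dependent proteases that fold and clear proteins inside mitochondria. They were taken by name, as Hspd1, Hspe1, Hspa9, Trap1, Lonp1, Clpp, Clpx, Afg3l2, Spg7 and Yme1l1, out of 55536 annotated genes. Their RNA was measured in whole adrenal glands of adult male mice aged 8 to 10 months, labelled as strain 5xFAD/CAST and as 5xFAD X Cast, which denotes a cross. The label joins 5xFAD, a mouse line carrying transgenes for familial Alzheimer's disease mutations, with CAST, a wild-derived inbred strain. The 5xFAD transgenes are driven by the neuronal Thy1 promoter, and whether these mice carried them was not analysed here. Reads of CAST alleles were assigned with the mm10 reference. Both libraries are of this 1 group, so no allele, treatment or tissue could be compared. They are named biological replicates 1 and 2. Each has a biosample entry of its own while the donor entry is shared, so the spread between them may be technical. Each library was made from 300 ng of total RNA with spike-in RNA added, and gene counts summed to 29204618 in replicate 1 and 26322446 in replicate 2. Values are given per library in TPM, read abundance scaled by transcript length and by the total of the library, with the mean ± SD (n = 2). No test between groups was possible, and an exact sign-flip permutation test over 2 libraries could not give a two-sided p below 0.5, so differences are given as descriptions.

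Most mitochondrial proteins are made in the cytosol, pulled unfolded through the inner membrane by the import motor, and folded in the matrix with the help of chaperones. Proteins that misfold or are no longer needed are cut up by ATP-dependent proteases, which stand in the matrix or in the inner membrane facing either side. In the adrenal cortex, mitochondria also hold the first and last steps of corticosteroid synthesis, and the cholesterol carrier STAR ends its life inside them, where the Lon protease has been reported to degrade it.

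All 10 members were detected, meaning 1 TPM or more in both libraries, while 25.5% of all annotated genes met this limit. Lonp1 was the highest with a mean of 226.2 TPM, and Hspd1, Hspa9 and Hspe1 followed. These 4 genes held 76.7% of the members' summed TPM in replicate 1 and 77.6% in replicate 2. The members summed to 901 TPM in replicate 1 and 973 TPM in replicate 2, which was 0.248% and 0.263% of the TPM of protein-coding genes. The median member stood at 45.0 and 47.1 TPM, against 12.3 and 12.4 TPM for the median detected protein-coding gene. In the order of mean levels, Hspd1 and Hspa9 overlapped between libraries, and so did Afg3l2 and Spg7. The other neighbours did not overlap, although Clpp and Yme1l1 were only 0.440 TPM apart and Lonp1 and Hspd1 only 4.43 TPM apart. The highest member was 9.38 times the lowest in replicate 1 and 11.1 times in replicate 2.

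**Figure D1:**
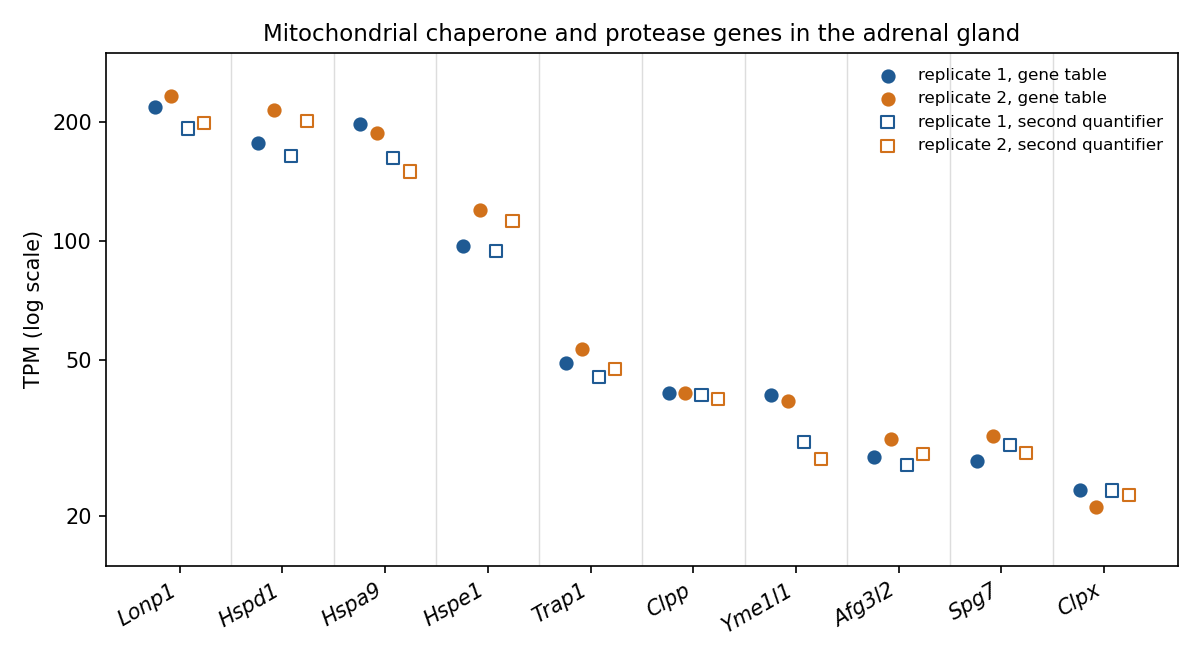
TPM of each member (log scale) in each library, from the deposited gene tables (filled circles) and from the second quantifier, a deposited transcript table made directly from the reads and summed per gene (open squares). Each point is 1 library. Lonp1, Hspd1, Hspa9 and Hspe1 stand above the other 6 genes in both libraries and both tables.

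Hspd1 and Hspe1 encode the chaperonin HSP60, a barrel in which matrix proteins fold, and its lid HSP10. Hspd1 was at 177.0 TPM in replicate 1 and 214.5 TPM in replicate 2 (195.7 ± 26.5, SD, n = 2). Hspe1 was at 97.11 TPM in replicate 1 and 119.7 TPM in replicate 2 (mean 108.4, SD 14.7% of the mean, n = 2). Both genes were higher in replicate 2, and in each library the barrel gene was above the lid gene. The ratio of Hspd1 to Hspe1 was nearly the same in both libraries, at 1.82 and 1.79. On the log2 scale the counts of Hspd1 differed between replicates 2 and 1 by 0.260 ± 0.018 (counting SE) and those of Hspe1 by 0.270 ± 0.046. The difference between these ratios was -0.010 ± 0.049, smaller than its counting error.

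The pair lies head to head on chromosome 1 of mm10, Hspd1 at chr1:55077835-55088243 on the minus strand and Hspe1 at chr1:55088132-55091307 on the plus strand. The gene spans overlap by 112 bases, but only through the minor transcripts Hspd1-202 and Hspd1-203. The starts of the leading transcripts Hspd1-201 and Hspe1-201 were 108 bases apart. This pair is known in mammals as a unit with a shared, heat-inducible promoter between the genes, and the sequence is shown for that reason. It is the Hspe1 window of RefSeq (GRCm38.p6, chr1:55087898-55088197, plus strand), from 250 bases before to 50 bases from the RefSeq start. A Hspd1 window of the same table on the other strand shares 285 of its bases. Capitals mark a run of 18 bases with 4 heat shock units, the short repeats bound by heat shock factors.
Hspe1: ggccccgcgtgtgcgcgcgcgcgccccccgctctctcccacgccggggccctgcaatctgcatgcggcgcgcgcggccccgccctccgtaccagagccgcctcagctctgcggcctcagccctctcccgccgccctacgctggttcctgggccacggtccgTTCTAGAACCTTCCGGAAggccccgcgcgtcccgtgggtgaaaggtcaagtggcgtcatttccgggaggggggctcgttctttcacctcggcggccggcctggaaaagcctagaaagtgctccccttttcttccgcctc
The run lies at chr1:55088059-55088076, 35 bases from the Hspd1-201 start and 56 bases from the Hspe1-201 start, and inside the first exon of Hspd1-202. The 3-unit element GAANNTTCNNGAA, searched on both strands, were found in 0.603% of 32851 RefSeq windows of this length. This motif contains the pairs GAANNTTC and TTCNNGAA, which were found in 7.86% and 8.52% of windows. Among the 9 member windows of 8 members that the table held, the element was in 2, the overlapping windows of Hspd1 and Hspe1, which is 1 site. The letters are those of the reference and not of the strain sampled, and no binding was measured.

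**Figure D2:**
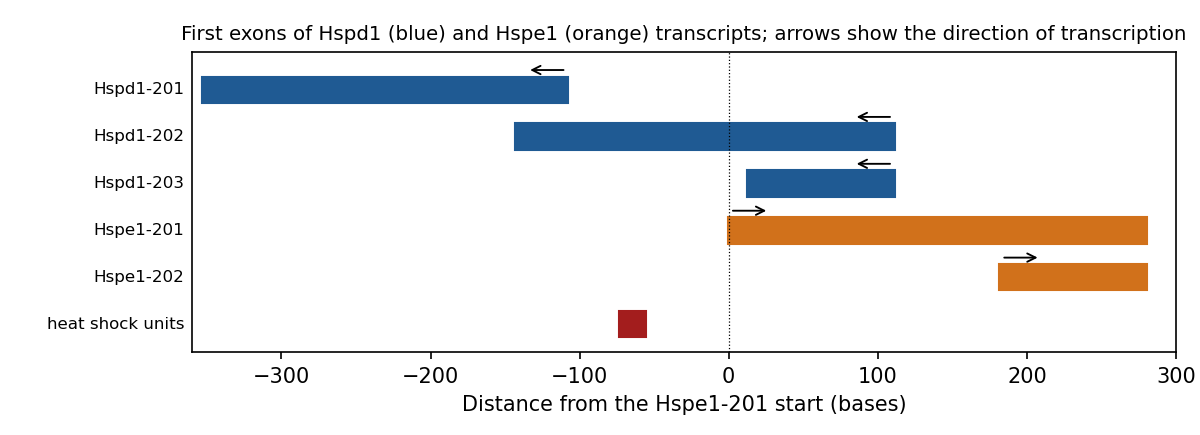
First exons of the Hspd1 and Hspe1 transcripts and the run of heat shock units, by distance in bases from the Hspe1-201 start. The run lies in the 108 bases between the starts of Hspd1-201 and Hspe1-201, while Hspd1-202 and Hspd1-203 start inside the first exon of Hspe1-201.

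Hspa9 encodes mortalin, the HSP70 of the matrix, which pulls proteins through the import channel and passes some of them on to the chaperonin. It was at 197.8 TPM in replicate 1 and 187.6 TPM in replicate 2 (192.7 ± 7.23, SD, n = 2), so it was lower where Hspd1 was higher. Counts of Hspa9 differed between replicates 2 and 1 by -0.110 ± 0.017 on the log2 scale, and the Hspd1 value was 0.370 ± 0.025 above it. Trap1, the HSP90 relative of mitochondria, was the lowest chaperone at 48.92 TPM in replicate 1 and 53.13 TPM in replicate 2 (51.03 ± 2.98). Hspa9 was 4.04 times Trap1 in replicate 1 and 3.53 times in replicate 2. Hspa9 lies at chr18:34937414-34954357 on the minus strand and Trap1 at chr16:4039971-4077827 on the minus strand of mm10.

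The cochaperones of Hspa9 were much lower than Hspa9 itself. Grpel1, its nucleotide exchange factor, was at 17.35 and 18.27 TPM, so that Hspa9 was 11.4 times Grpel1 in replicate 1 and 10.3 times in replicate 2. All 9 genes of the cochaperone list were detected, with a median of 22.0 and 20.9 TPM. The list also holds Clpb, named after its values were seen, which is not a cochaperone of Hspa9. Clpb was itself the median gene, at 21.98 and 20.88 TPM. The highest of the list was Dnajc15, a J protein of the import motor, at 66.02 and 58.48 TPM. Dnaja3, a matrix J protein, was at 34.59 and 35.93 TPM, and Pam16, another motor subunit, at 26.53 and 30.31 TPM. Together the 4 chaperone genes among the members summed to 521 TPM in replicate 1 and 575 TPM in replicate 2, above the 6 proteases at 380 and 398 TPM.

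Lonp1 encodes the Lon protease of the matrix, which removes damaged and short-lived proteins and also binds mitochondrial DNA. It was at 218.9 TPM in replicate 1 and 233.5 TPM in replicate 2 (226.2 ± 10.3, SD, n = 2), the highest of all 10 members in both libraries. Its mean placed it at rank 168 of 12371 detected protein-coding genes, above 98.6% of them. Lonp1 was 1.24 times Hspd1 in replicate 1 and 1.09 times in replicate 2. It was 5.32 times Clpp, the other proteolytic matrix member, in replicate 1 and 5.69 times in replicate 2. Star, whose protein is a reported Lon substrate, was 25.5 and 24.9 times as high as Lonp1 in TPM. In the second quantifier it was 31.3 and 28.8 times as high. Lonp1 lies at chr17:56614297-56626887 on the minus strand, and its 3′ end is 53 bases from that of the ribosomal protein gene Rpl36 on the plus strand. Its RefSeq window (GRCm38.p6, chr17:56626854-56627153, minus strand) is shown because it belongs to the most abundant member, with a match to part of the site of NRF-1, a regulator of mitochondrial genes, in capitals.
Lonp1: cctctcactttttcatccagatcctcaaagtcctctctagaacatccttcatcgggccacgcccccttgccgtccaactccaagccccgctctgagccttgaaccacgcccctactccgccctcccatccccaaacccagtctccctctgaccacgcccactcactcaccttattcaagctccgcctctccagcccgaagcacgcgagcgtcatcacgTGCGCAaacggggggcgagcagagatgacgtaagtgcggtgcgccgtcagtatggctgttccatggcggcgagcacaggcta
The letters TGCGCA, which read the same on both strands, were in 7.76% of all windows and in 3 of the 9 member windows, those of Lonp1, Clpx and Spg7. The GC box GGGCGG was in 8 of 9 member windows and in 35.7% of all windows, and CCAAT in 3 of 9 and 37.4%. The member windows shown are GC-rich, with 71.0% for Hspe1 and 61.0% for Lonp1 against a median of 52.7%. TGATGNAA, a site form of stress factors such as ATF4, was in 0 of 9 member windows and 3.97% of all. CAAGGTCA, a site form of the steroidogenic factor SF-1, was in 1 of 9, that of Trap1, and in 1.56% of all. These are matches of letters on either strand and not measured sites.

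Clpp and Clpx encode the peptidase and the ATP-driven unfoldase of the ClpXP protease. ClpX without ClpP is also known to activate the first enzyme of heme synthesis. Clpp was at 41.18 TPM in replicate 1 and 41.05 TPM in replicate 2 (41.11 ± 0.0919, SD, n = 2). This was the smallest SD of the members, although the counting error of Clpp, 0.066 on the log2 scale, was the largest. In the second quantifier the SD of Clpp was 0.724 TPM, above the 0.419 TPM of Clpx. Clpx was the lowest member, at 23.34 TPM in replicate 1 and 21.07 TPM in replicate 2 (22.20 ± 1.61). The unfoldase transcript was below the peptidase transcript in both libraries, with a ratio of Clpx to Clpp of 0.567 and 0.513. Clpp lies at chr17:56990305-56996188 and Clpx at chr9:65294260-65330658, both on the plus strand. Clpp, at 1013 and 900 counts, had the fewest counts of the members.

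The 3 inner membrane proteases stood between Clpp and Clpx in mean level. Afg3l2 and Spg7 encode the subunits of the m-AAA protease, which faces the matrix, and both genes are known from human inherited ataxia or spastic paraplegia. Afg3l2 was at 28.22 TPM in replicate 1 and 31.45 TPM in replicate 2 (29.84 ± 2.28, SD, n = 2). Spg7 was at 27.58 TPM in replicate 1 and 31.97 TPM in replicate 2 (29.78 ± 3.10). The ratio of Afg3l2 to Spg7 was 1.02 and 0.984, and 0.890 and 0.996 in the second quantifier, where Spg7 was above Afg3l2 in both libraries. Mice also have Afg3l1, a further m-AAA subunit that is a pseudogene in humans. Afg3l1, named after its values were seen, was at 32.28 TPM in replicate 1 and 26.40 TPM in replicate 2, above the range of Afg3l2 and Spg7 in the first and below it in the second. Yme1l1, the i-AAA protease that faces the intermembrane space and cuts OPA1, was at 40.61 TPM in replicate 1 and 39.32 TPM in replicate 2 (39.97 ± 0.912). The ratio of Afg3l2 to Yme1l1 was 0.695 and 0.800, but 0.876 and 1.03 in the second quantifier. On mm10, Afg3l2 lies at chr18:67404764-67449172 (minus), Spg7 at chr8:123062942-123097760 (plus) and Yme1l1 at chr2:23156369-23199260 (plus). The whole of Spg7 lies within the annotated gene Gm20388 on the same strand, which received 311 and 623 counts. Reads shared by these overlapping genes could be split either way, although the deposited posterior SD of the Spg7 count was 0 in both libraries.

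The members have 45 annotated transcripts, of which 20 are of the protein-coding class. The leading transcript was protein-coding for all 10 members, and the second quantifier gave the same leading transcript for 10 of 10. In 6 members it held 90% or more of the gene's TPM in both libraries, namely Hspd1, Hspe1, Hspa9, Trap1, Lonp1 and Clpp. Hspd1-201 held 98.9% in replicate 1 and 99.3% in replicate 2, but 95.2% and 91.5% in the second quantifier. There Hspd1-203, at 0 in the gene pipeline, held 3.53% and 7.71%. Lonp1-202, annotated for nonsense-mediated decay, was the only other Lonp1 transcript and held 10.0% in replicate 1 and 9.90% in replicate 2. In the second quantifier Lonp1-202 held 10.9% and 11.1%. It keeps 2 introns of Lonp1-201 within its exons, 1308 bases in all, and the libraries were made from total RNA, so its reads and those of unspliced Lonp1 RNA cannot be told apart. Afg3l2-203, of the retained intron class, held 8.25% and 8.22% of Afg3l2, and 14.9% and 13.9% in the second quantifier.

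The remaining 4 members were less concentrated in 1 transcript. Yme1l1-201 held 58.4% of Yme1l1 TPM in replicate 1 and 56.4% in replicate 2. Yme1l1-206, a processed transcript of 628 bases, held 25.9% and 28.1%, but 5.07% and 5.06% in the second quantifier. In TPM it was at 10.5 and 11.1 in the gene pipeline and at 1.56 and 1.41 in the second quantifier. It took 159.1 and 149.5 expected counts, 4.53% and 5.05% of those of the gene, and weighs more in TPM because TPM divides by length. Spg7 had 13 transcripts, and its leading Spg7-211 held 38.2% in replicate 1 and 33.4% in replicate 2. The short Spg7-206 held 8.78% in replicate 1 and 20.4% in replicate 2, but 0.755% and 4.07% in the second quantifier. Spg7 as a gene differed between replicates 2 and 1 by 0.213 on the log2 scale in TPM but by 0.052 ± 0.052 in counts, while the second quantifier had it at 30.41 TPM in replicate 1 and 28.94 TPM in replicate 2. Clpx-201 held 79.8% and 75.7%. Clpx-202 was at 0 in replicate 1 and 2.10 TPM in replicate 2, and Clpx-203 at 1.95 TPM in replicate 1 and 0 in replicate 2. The second quantifier placed reads on both of these Clpx transcripts in both libraries, so their absence was not shared between methods.

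**Figure D3:**
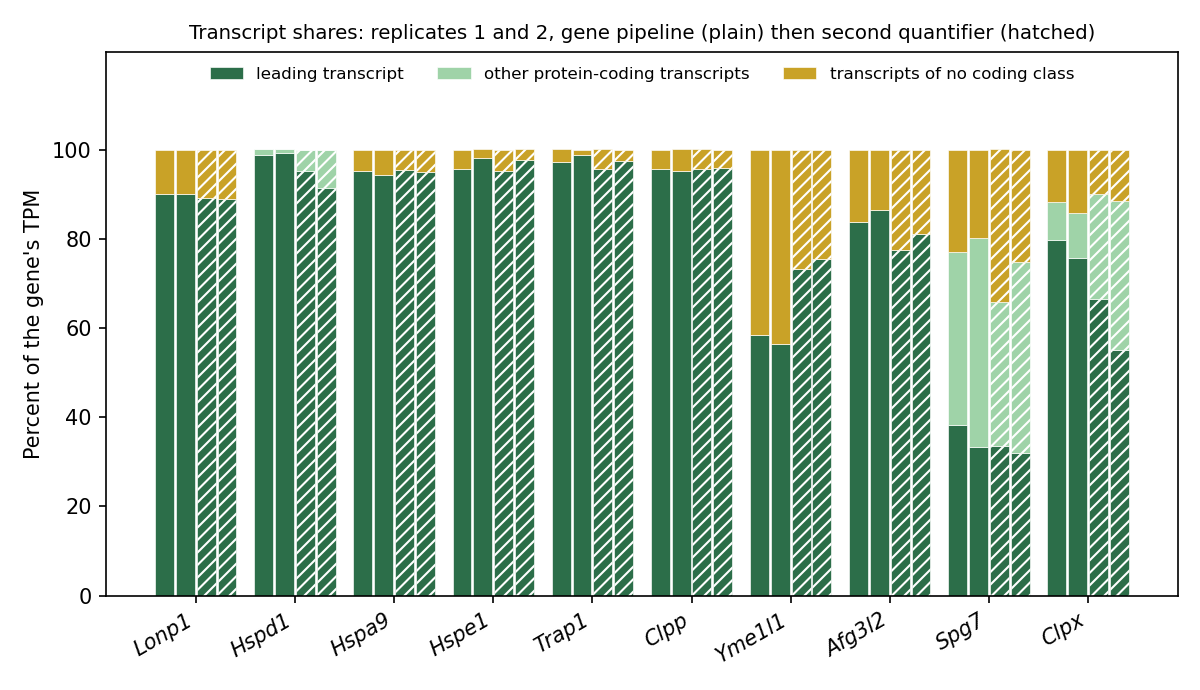
Percent of each member's TPM held by its leading transcript, by its other protein-coding transcripts and by transcripts of no coding class. The 4 bars of a gene are replicates 1 and 2 of the gene pipeline (plain) and of the second quantifier (hatched). Yme1l1, Spg7 and Clpx are divided among several transcripts. In replicate 2 the leading transcript of Yme1l1 holds 56.4% and, in the second quantifier, 75.5%, and that of Clpx 75.7% and 55.0%.

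Between the libraries, 6 members were higher and 4 lower in replicate 2, and their median log2 ratio was 0.062, or -0.035 when scaled to spike-in totals. Over the 16383 genes with a mean count of 20 or more the median was -0.006, or -0.103 with spike-in totals. A difference of 1.2-fold, a log2 ratio of 0.263, was used to describe size. Hspe1 was the only member at or past it in the higher direction, where 11.1% of all these genes were, and 0 of 10 members were past it in the lower direction, where 13.5% were. Of the 5610 genes with a mean count of 900 or more, as the members have, 6.54% were past it in either direction. Hspd1 fell just inside this limit, so the count of 1 separates genes whose ratios do not differ beyond counting error. With the counts of the second quantifier the call passed from Hspe1, at 0.217, to Hspd1, at 0.270. Of the others, Afg3l2 was at 0.138 ± 0.041 and Trap1 at 0.118 ± 0.037. Lonp1 was at 0.072 ± 0.015, or -0.025 with spike-in totals. Clpp was at -0.029 ± 0.066, Clpx at -0.084 ± 0.053 and Yme1l1 at -0.105 ± 0.036. The median size of the members' log2 ratios was 0.107, against 0.122 for all these genes and 0.070 for those with a mean count of 900 or more. Over all genes the coefficient of variation beyond counting was 8.85%.

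**Figure D4:**
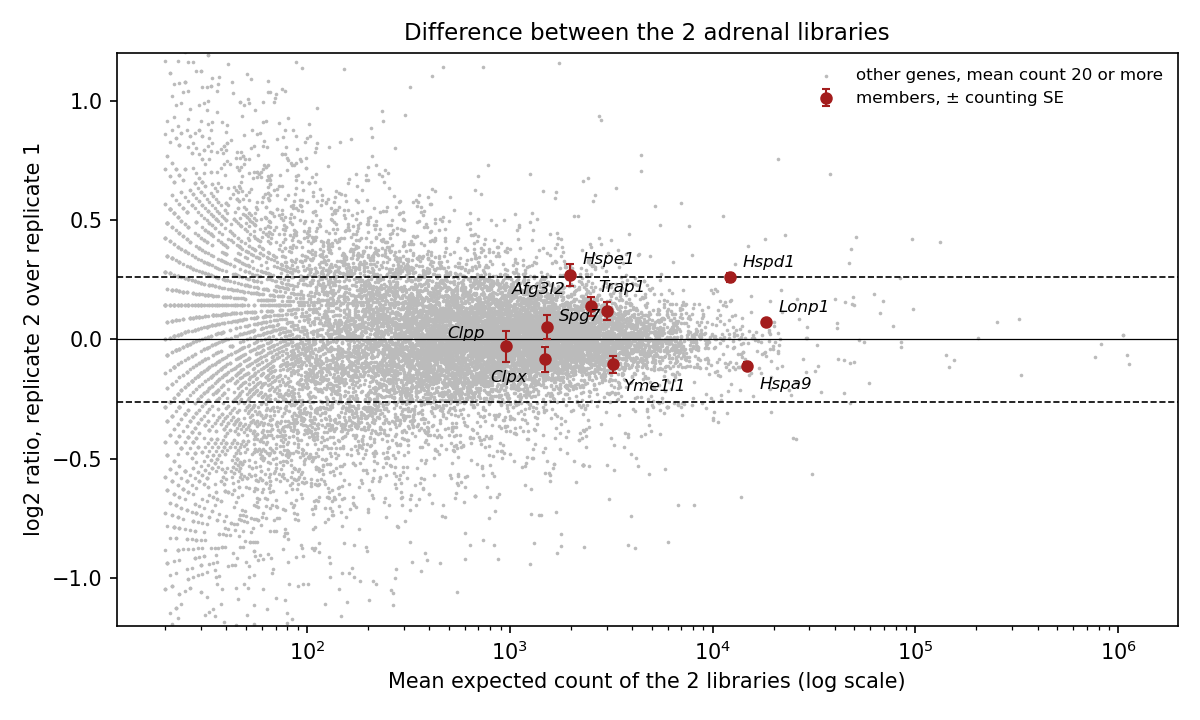
Log2 ratio of replicate 2 to replicate 1 against the mean expected count (log scale) for genes with a mean count of 20 or more (grey) and the members (red, ± counting SE). Dashed lines mark 1.2-fold, and 164 genes lie beyond the axis at 1.2 on the log2 scale. Hspd1 and Hspe1 lie at the upper line, and the other 8 members between the lines.

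Markers of other cells in the gland moved between the libraries too. White adipocyte markers, led by Car3 and Fabp4, were all detected (9 of 9), summed to 840 TPM in replicate 1 and 516 TPM in replicate 2, and 8 of 9 were 1.2-fold or more lower in replicate 2. Macrophage markers, led by Lyz2 and C1qb, summed to 236 and 154 TPM, with 4 of 6 past that limit. Brown adipocyte markers, led by Cox8b and Cox7a1, summed to 54.3 and 48.3 TPM, with 4 of 7 detected. Of the 5 with a mean count of 20 or more, 4 were 1.2-fold or more lower in replicate 2, and their median log2 ratio was -0.649. Medulla markers, led by Chga and Chgb, summed to 1990 and 2300 TPM, and 6 of 6 were higher in replicate 2. Cortex markers, led by Star and Hsd3b1, summed to 17200 and 18200 TPM, with 7 of 7 detected and 5 of 7 higher in replicate 2. The 1 past 1.2-fold was Cyp21a1, named after its values were seen, at 2230 and 3005 TPM. Endothelial markers, led by Plvap and Egfl7, summed to 287 and 296 TPM, with 0 of 6 past 1.2-fold. Capsule fibroblast markers, led by Dcn and Nr2f2, summed to 175 and 187 TPM, with 3 of 6 higher and 3 lower in replicate 2, 2 of them by 1.2-fold or more. Kidney markers, led by Aqp2 and Miox, summed to 2.37 and 1.40 TPM, and of 5 skeletal muscle markers none was detected and Myh4 was at 0. Of all genes with a mean count of 20 or more, 11.1% were 1.2-fold or more higher in replicate 2 and 13.5% lower. Scaling to spike-in totals lowers every ratio, and the median of all these genes went from -0.006 to -0.103. The direction of markers with small ratios therefore depends on the scaling. The part of these cell types in the members' ratios was not tested, and in bulk tissue fewer cells of a type and less RNA per cell cannot be told apart.

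Further checks bear on how reads were assigned. The mouse annotation holds 12 genes named as pseudogene copies of Hspd1, Hspe1 or Hspa9, by the symbol followed by -ps. Copies under other names were not searched for. Of the 12, 9 had 0 counts in both libraries and both quantifiers. Hspd1-ps3 took 74 counts in replicate 1 and 83 in replicate 2, but 12 and 11 in the second quantifier. Hspd1-ps4 took 13 and 3 counts, and Hspa9-ps1 took 3 and 1, but 80 and 51 in the second quantifier. The copies named after Hspd1 together held 0.744% and 0.678% as many counts as Hspd1 itself. Moving the counts of these copies would change Hspd1 by less than its spread between libraries. The deposited posterior SD of the count was 7.72 and 8.65 for Hspd1 and 15.9 and 13.9 for Hspe1, near 0 for the other members. Between quantifiers, 9 of 10 members were lower in the second, with a median log2 difference of -0.096, against -0.075 for all detected genes. Yme1l1, at 30.87 and 27.94 TPM there (73.6% of its first value), and Hspa9, at 162.6 and 150.1 TPM, were 1.2-fold or more lower. That was 2 of 10 members, against 12.1% of detected genes. Lonp1, at 193.0 TPM in replicate 1 and 199.7 TPM in replicate 2, was above Hspd1 in the first of these and below its 201.4 TPM in the second.

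The other genes of mitochondrial protein quality control differed widely in level. All 12 other proteases were detected, and the median one stood at 17.5 and 16.6 TPM. They were led by Pmpcb at 69.77 and 70.82 TPM and Pmpca at 50.19 and 51.20 TPM, the subunits of the peptidase that removes import signals, and by the rhomboid protease gene Parl at 47.21 and 44.90 TPM. Among them 2 of 12 were 1.2-fold or more higher in replicate 2 and 0 lower. Over all genes with a mean count of 20 or more these shares were 11.1% and 13.5%. Of the 2 higher proteases, Lactb, at 5.880 and 7.320 TPM, had a mean count over 100. All 6 scaffold and partner genes were detected, led by Chchd2 at 252.6 and 234.4 TPM, above every member in replicate 1 and 2. The prohibitin genes Phb and Phb2, whose ring surrounds the m-AAA protease, were at 104.0 and 102.8 TPM and at 82.86 and 86.80 TPM. The 11 protein import genes had a median of 32.4 and 32.1 TPM, led by Timm17a, Tomm20 and Timm17b, and 0 of 11 were past 1.2-fold either way. Of the 9 genes of the cochaperone list 1 was past it, Pam16, at 0.349 ± 0.108 on the log2 scale. In the second quantifier Pam16 went the other way, with 42.71 TPM in replicate 1 and 26.79 TPM in replicate 2.

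In the list drawn up for regulators of the mitochondrial unfolded protein response, Ubl5 was highest, at 113.5 and 109.3 TPM. Ndufab1 followed at 90.59 and 97.12 TPM, but it encodes a respiratory chain subunit and is not an established regulator of this response. Atf4, a transcription factor of the integrated stress response, was at 55.98 and 60.32 TPM. Cebpb was the only one listed past 1.2-fold, at 29.79 TPM in replicate 1 and 42.82 TPM in replicate 2, a log2 ratio of 0.502 ± 0.056. The list's median ratio was -0.074.

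The chaperones of the cytosol and endoplasmic reticulum give the scale for the mitochondrial ones. The highest were Hsp90ab1 at 465.0 and 479.7 TPM and Hspa8, the constitutive cytosolic HSP70, at 405.7 and 415.1 TPM. Hspa5, the HSP70 of the endoplasmic reticulum, was at 197.2 TPM in replicate 1 and 212.1 TPM in replicate 2, within the range of Hspa9 and Hspd1. The 13 genes of this list were all detected, with a median of 74.8 and 66.5 TPM and a median log2 ratio of 0.006. By counts, none was 1.2-fold or more higher in replicate 2, against 11.1% of all genes with a mean count of 20 or more. Lower by that much were 2 of 13, against 13.5% of all those genes. The 2 lower ones were Hspb1, at 74.84 and 57.53 TPM (-0.401 ± 0.054), and Hspa1b, at 10.35 and 8.240 TPM (-0.348 ± 0.079). Both are heat-inducible, as are Hspa1a, Dnajb1 and Hsp90aa1, named after their values were seen. Hspa1a was lower in replicate 2, at 4.200 and 3.860 TPM (-0.143 ± 0.116). Dnajb1 was higher, at 8.420 and 10.07 TPM (0.238 ± 0.076), near the ratios of Hspd1 and Hspe1. Hsp90aa1 was at 0.030 ± 0.026 in counts, but at 88.40 TPM in replicate 1 and 108.1 TPM in replicate 2. In the second quantifier it was at 111.4 and 142.4 TPM.

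The listed proteins of steroid synthesis that work at or in mitochondria were encoded by far more abundant transcripts. Cyp11a1, which cuts the cholesterol side chain, was at 2869 and 2747 TPM and Cyp11b1, which completes corticosterone, at 1721 and 1667 TPM. Fdx1, the ferredoxin that feeds electrons to both, was at 594.4 TPM in replicate 1 and 773.2 TPM in replicate 2, a log2 ratio of 0.328 ± 0.016. It was the only one of these 5 genes past 1.2-fold. The list of 5, with Star and Fdxr, summed to 11500 TPM in replicate 1 and 11700 TPM in replicate 2, while the 10 chaperone and protease genes summed to 901 and 973 TPM.

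**Figure D5:**
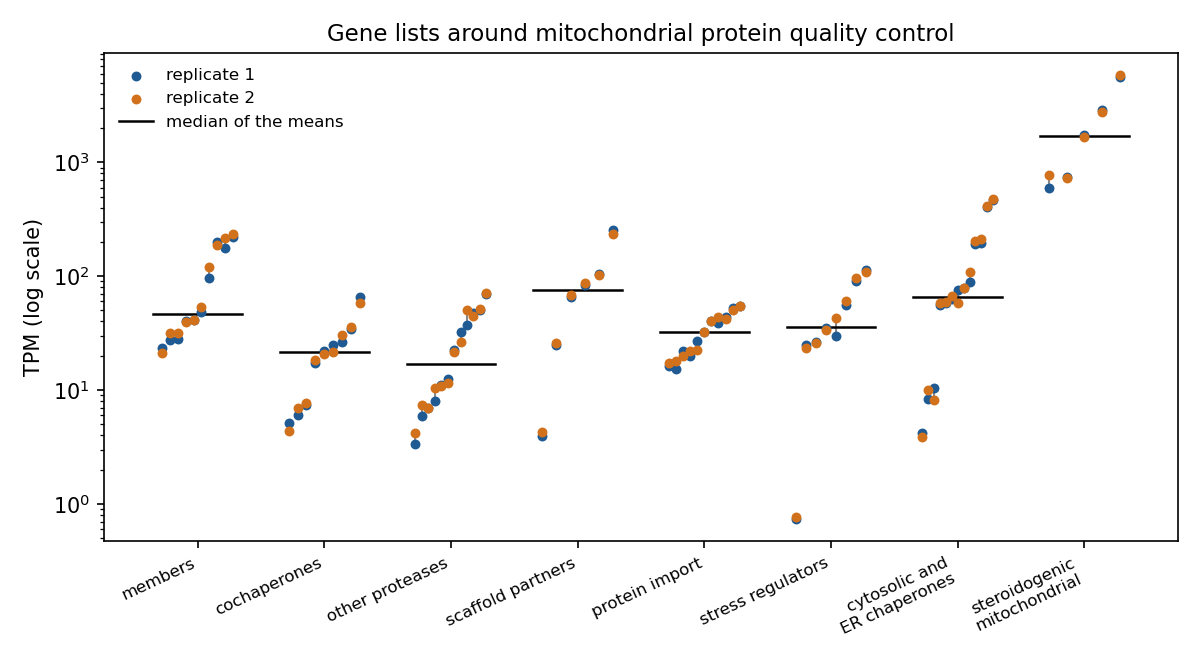
TPM (log scale) of every gene of the members and of the related lists, with replicate 1 and 2 as joined points and the median of the means as a bar. The members span from 22.20 to 226.2 TPM in mean level, below the steroidogenic mitochondrial genes. Their median is above those of the cochaperones and the other proteases. It is below those of the scaffold partners and of the cytosolic and endoplasmic reticulum chaperones.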

How the data were processed

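Adrenal total RNA was made into ribosomal RNA-reduced, stranded libraries, per the labels. The authors' gene tables hold, for each gene, an expected count, TPM and FPKM, per the file headers; the reference was mm10 with the GENCODE M21 annotation, as the library notes state. Names and versions of the tools were not given in these sources. The deposited transcript tables of that pipeline add a transcript's share in percent, and its gene tables a posterior SD, here a score in count units, per the file headers. Another deposited table with expected counts and TPM per transcript, made directly from the reads, is called the second quantifier, and its transcripts were summed per gene.

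Spike-ins, which held 0.468% and 0.504% of counts, phiX and 26248 entries naming no gene (4 and 6 counts) stayed out of library sizes. Expected counts were rounded. Ratios used TMM totals from edgeR 4.0.16 in R 4.3.3 with a prior count of 0.5, and the coefficient of variation came from edgeR with 1 group and 17359 genes. Their errors are Poisson errors and cover counting only, since reads are not independent molecules. The comparison of quantifiers added 0.1 TPM as pseudocount. DESeq2 1.42.0 size factors were an alternative. Python 3.11.15 with pandas 2.3.3, numpy 2.4.6 and matplotlib 3.10.9 was used, and the ratio step was tested on simulated counts. Promoter windows came from RefSeq (GRCm38.p6), with 8 of 10 members matched by symbol.

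Members and lists were chosen with earlier results of these data known. Named genes were all members and their copies named with -ps. From each related list they were the 3 highest, those below 1 TPM in either library and those past 1.2-fold with a mean count of 100 or more, and from each marker list the 2 highest. A gene that this rule takes is not reported here.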

Additional observations from a re-analysis of the deposited data

How the results depend on the processing

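Alternatives were DESeq2 size factors, plain totals, spike-in totals, the counts of the second quantifier, TPM in place of counts, other limits, FPKM, TPM scaled over protein-coding genes, and each library alone. The number of members 1.2-fold or more higher in replicate 2 was 1, and it was 2 with plain totals and with TPM, as Hspd1 crossed the limit, and 0 with spike-in totals or at 1.5-fold. With the counts of the second quantifier it was 1, but the gene was Hspd1 (0.270) and no longer Hspe1 (0.217). The median log2 ratio of the members was -0.035 with spike-in totals, which put the median of all genes at -0.103. Against 0.062 in the main setting, it ran from 0.065 to 0.106 under the other scalings and measures. Of the 10 members, 8 kept the sign of their ratio under all 5 such alternatives, and the exceptions were Lonp1 (-0.025 to 0.093) and Spg7 (-0.045 to 0.212). Over all genes, 1818 were 1.2-fold or more higher and 2214 lower, against 5761 and 6940 with no minimum count, 444 and 655 at 1.5-fold, and 1154 and 3423 with spike-in totals.

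The members' median level was 46.1 TPM, 43.2 in the second quantifier and 126 when TPM was scaled over protein-coding genes only. In the second quantifier the ratio of Hspd1 to Hspe1 was 1.77, that of Afg3l2 to Spg7 0.943 and that of Hspa9 to Grpel1 10.00. The cause was not tested. All 10 members were also at 10 TPM or more in both libraries. Of 110 values of single members recomputed, 23 moved. Ratios between the libraries were judged against their counting error, and the other values against their spread between libraries. The levels from each library alone could not move, since with 2 libraries each value lies within 1 SD of their mean. Only Hspe1 had a main ratio past 1.2-fold, and its ratio kept its sign under all 5 alternatives. No paired analysis was possible because there is 1 group. With 900 counts or more per member, counting error is at most 0.066 on the log2 scale, and the ratios of Clpp and Spg7 are no larger than it. Counting error sets no limit of detection here. The coefficient of variation beyond counting was also 6.81% to 7.54% at the members' counts, whatever the depth. A single pair of libraries gives no error between animals.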
